A study of Homo sapiens with 6 samples.

Results

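NF-κB is a family of transcription factors that IκB proteins hold in the cytoplasm until a receptor of the tumor necrosis factor (TNF) family, or another stimulus, leads to the degradation of the IκB protein. Freed NF-κB then switches on target genes, among them genes that feed back on the pathway itself. Some of these encode brakes, such as the inhibitor IκBα and the ubiquitin-editing enzyme A20. Others encode an adaptor and a survival factor that work just below TNF receptors, and a receptor of that family. The 5 genes described here belong to this feedback group. They are NFKBIA, which encodes IκBα, TNFAIP3, which encodes A20, TRAF1, an adaptor that binds TNF receptors, BIRC3, which encodes the ubiquitin ligase and apoptosis inhibitor cIAP2, and TNFRSF9, which encodes the TNF receptor family member 4-1BB. They were taken by gene name, and all 5 names were found among the 500 genes of the table.

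The table comes from RNA sequencing of RKO, an established human colorectal carcinoma line. There were 3 libraries of cells carrying a non-targeting hairpin, labelled WT (shNT), and 3 of cells carrying a hairpin against SQLE, labelled SQLE knockdown (shSQLE). The series is described as run in duplicate, yet the labels give each group 3 libraries. All 3 were used here as n = 3. A figure legend of the paper also gives 3 samples against 3 for this RNA sequencing, and why the series says duplicate is not known. SQLE encodes squalene epoxidase, an enzyme of cholesterol synthesis. Both groups have Ctrl in their column names, a tag that is not explained. The labels mention no 5-fluorouracil (5-FU), although the paper's text speaks of changes after the drug, and exposure of either group to it cannot be told here. The paper used 2 SQLE hairpins and does not say which one these libraries carry, and no label says whether the libraries of a group came from separate cultures, so the p-values measure only the spread between these libraries.

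The values are pseudo-counts, which are read counts moved by the authors to a common library size. They are not divided by gene length. All 3000 values could be traced back to whole reads within 0.01, which gave library sizes of 0.924 to 1.13 relative to the common size in shNT and of 0.797 to 1.11 in shSQLE, the smallest being shSQLE replicate 3. The whole reads on the 500 genes summed to between 117410 and 233404 per library, while the full depth is unknown. SQLE itself, the target of the hairpin, lay between 6926 and 6976 pseudo-counts in shNT and between 296 and 307 in shSQLE, or 4.35% of the shNT mean. In the authors' own columns, 500 of the 500 genes pass an adjusted p-value under 0.05 and a 2-fold change. Every gene described below had therefore already been selected as changed on these same libraries, and the tests describe sizes and spreads within that selection. Of 8 markers of colorectal epithelium only KRT20 was in the table, with 4, 4 and 15 reads in shNT against 0 in each shSQLE library, and of 9 markers of other cell types only VWF was, with 8, 13 and 15 reads in shNT against 4, 0 and 0. The identity of the cells could thus not be checked on this table, and whether a shift in cell state moved with the 5 genes was not tested.

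The promoters of these genes are shown first, because the group is defined by its induction through NF-κB. RefSeq windows of 300 bases on GRCh38.p14, from 250 bases before to 50 after the annotated start site, were searched on both strands for the κB consensus motif, the 10-base element that NF-κB dimers bind. All 5 genes had a window in RefSeq, and TRAF1 had 3 because it has several annotated starts. The consensus was found in the windows of 4 genes. The 4 windows read 5′ to 3′ on the strand of the gene, with the bases of each consensus match in capitals.
NFKBIA: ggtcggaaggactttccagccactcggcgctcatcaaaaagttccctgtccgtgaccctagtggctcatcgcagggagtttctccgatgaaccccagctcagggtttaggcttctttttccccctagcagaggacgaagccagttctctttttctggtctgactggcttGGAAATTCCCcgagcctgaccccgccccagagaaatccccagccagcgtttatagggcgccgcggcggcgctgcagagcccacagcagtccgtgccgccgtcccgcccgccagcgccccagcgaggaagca
TNFAIP3: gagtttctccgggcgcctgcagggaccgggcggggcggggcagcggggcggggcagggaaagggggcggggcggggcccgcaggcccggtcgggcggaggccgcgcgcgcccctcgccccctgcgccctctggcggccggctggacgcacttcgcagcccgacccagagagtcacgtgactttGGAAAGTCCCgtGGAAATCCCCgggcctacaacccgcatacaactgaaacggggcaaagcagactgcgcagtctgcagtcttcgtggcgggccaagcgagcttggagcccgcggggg
BIRC3: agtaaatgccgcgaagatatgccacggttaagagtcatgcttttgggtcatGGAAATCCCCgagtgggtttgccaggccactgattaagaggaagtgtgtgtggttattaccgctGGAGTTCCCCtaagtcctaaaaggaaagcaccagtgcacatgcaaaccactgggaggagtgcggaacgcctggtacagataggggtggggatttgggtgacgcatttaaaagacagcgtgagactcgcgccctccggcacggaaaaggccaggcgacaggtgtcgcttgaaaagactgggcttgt
TNFRSF9: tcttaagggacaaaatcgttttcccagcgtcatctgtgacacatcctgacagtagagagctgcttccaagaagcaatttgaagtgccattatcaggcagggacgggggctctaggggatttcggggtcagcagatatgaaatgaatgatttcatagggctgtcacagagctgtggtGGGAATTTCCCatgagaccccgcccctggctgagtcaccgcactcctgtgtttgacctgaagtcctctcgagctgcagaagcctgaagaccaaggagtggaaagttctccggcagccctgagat

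The NFKBIA window lies at chr14:35404700-35404999 on the minus strand and holds 1 match, from base -81 to base -72 counted from the start site (chr14:35404821-35404830). The TNFAIP3 window (chr6:137867009-137867308, plus strand) holds a pair of matches close together, from -67 to -58 and from -55 to -46. In BIRC3 (chr11:102317234-102317533, plus strand) the matches lie farther up, from -199 to -190 and from -135 to -126. The matches of NFKBIA, TNFAIP3 and BIRC3 all read as the motif on the strand opposite to the gene. TNFRSF9 (chr1:7940790-7941089, minus strand) has a match on each strand that overlap in all but 1 base, from -74 to -65 and from -73 to -64, and they are a single element. The first match of TNFAIP3 reads GGGACTTTCC on the motif strand, while NFKBIA and TNFRSF9 share GGGAATTTCC, and TNFAIP3 and BIRC3 share GGGGATTTCC. Over all RefSeq windows of this length, 2075 of 35116 (5.91%) hold the consensus, and 7.09% of 27305 genes have it in at least 1 window. None of the 3 windows of TRAF1 holds it, which says only that these letters are not within these windows. A looser form, which keeps only the 3 leading G and the 2 closing C of the 10 bases, occurs in all 7 windows of the 5 genes but also in 58.7% of all windows. Each match to the consensus is also a match to the looser form. A match is a description of the letters and not evidence of binding in RKO cells.

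**Figure D1:**
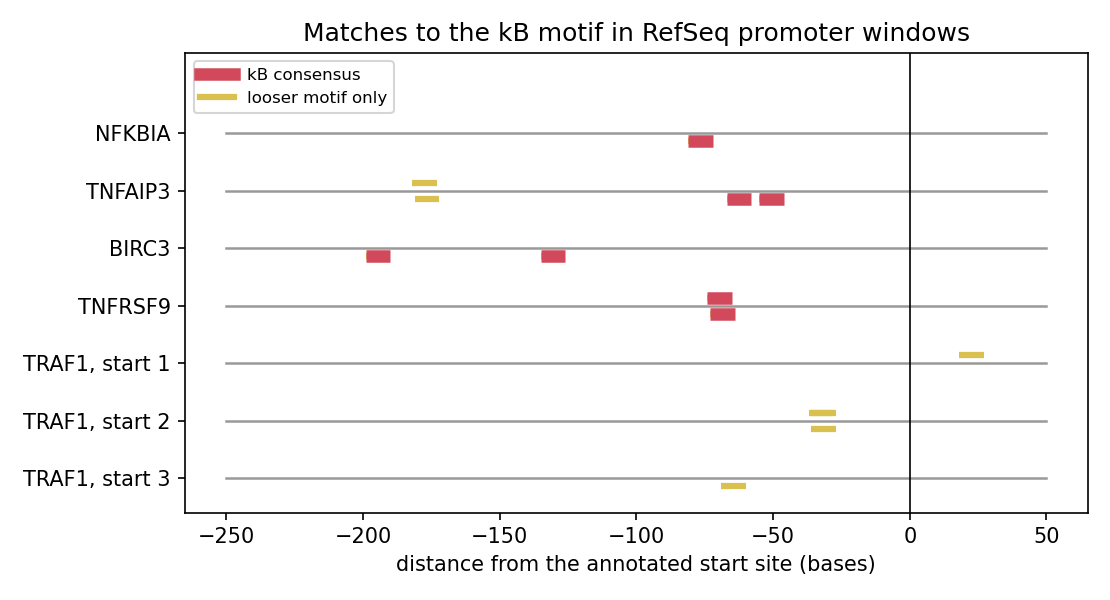
Positions of κB motif matches in the promoter windows of the 5 genes, with the distance from the annotated start site in bases on the x axis and 1 line per RefSeq start. Red bars are matches to the κB consensus and yellow bars matches to the looser form only, above the line for the strand of the gene and below it for the opposite strand. The consensus matches of NFKBIA, TNFAIP3 and TNFRSF9 lie between -81 and -46, those of BIRC3 between -199 and -126, and TRAF1 has only looser matches.

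All 5 feedback genes were lower after SQLE depletion. With limma on log2(pseudo-count + 1), all 5 passed an adjusted p-value under 0.05 and a log2 fold change of at most -1, where 71.9% of the 473 genes tested were called lower and 20.7% higher (92.6% in either direction). Because the table holds only selected genes, the count of members called is read as no result of its own. For all 5 genes the highest shSQLE value was under the lowest shNT value, which held for 69.6% of the genes tested. The log2 fold changes ran from -1.86 for TRAF1 to -1.19 for NFKBIA, with a median of -1.60 (all genes tested, -1.38). Among the 364 genes with a negative log2 fold change the median was -1.67, and among the 107 of these with a mean of at least 50 pseudo-counts it was -1.31. Within those 107 genes, ordered from the largest decrease, TRAF1 was at place 24, TNFAIP3 at place 35, BIRC3 at place 44 and NFKBIA at place 73.

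**Figure D2:**
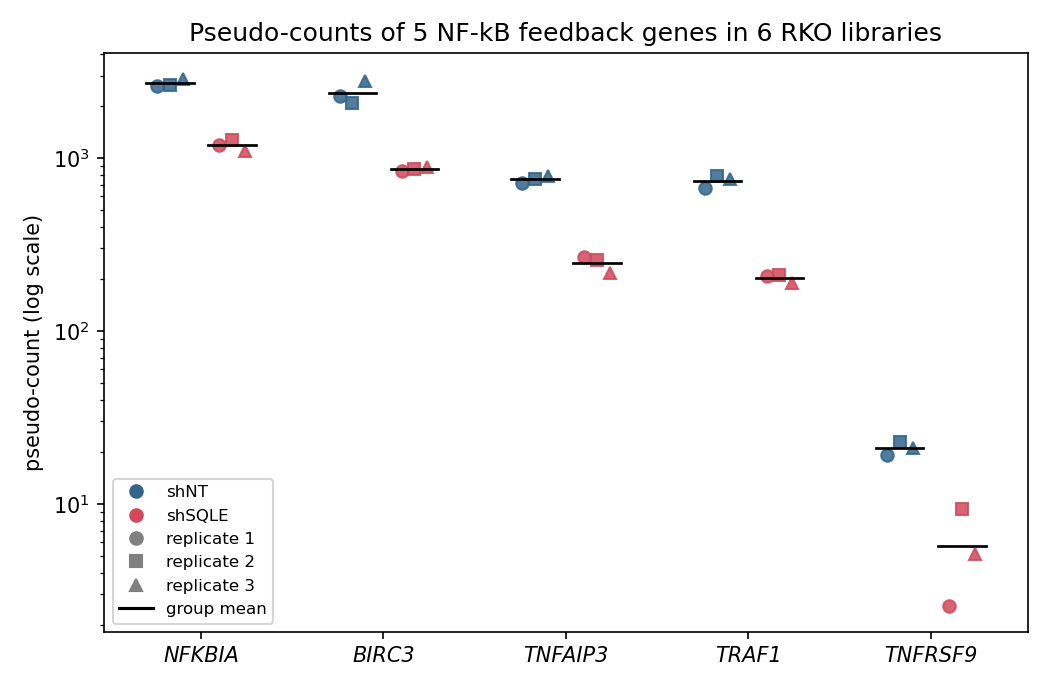
Pseudo-counts of the 5 genes on a log scale, with 1 point per library, the shape giving the replicate number and the line the group mean (n = 3). The shSQLE points lie below the shNT points for each gene, and TNFRSF9 sits far below the other 4 genes, at 19.0 to 22.7 in shNT.

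**Figure D3:**
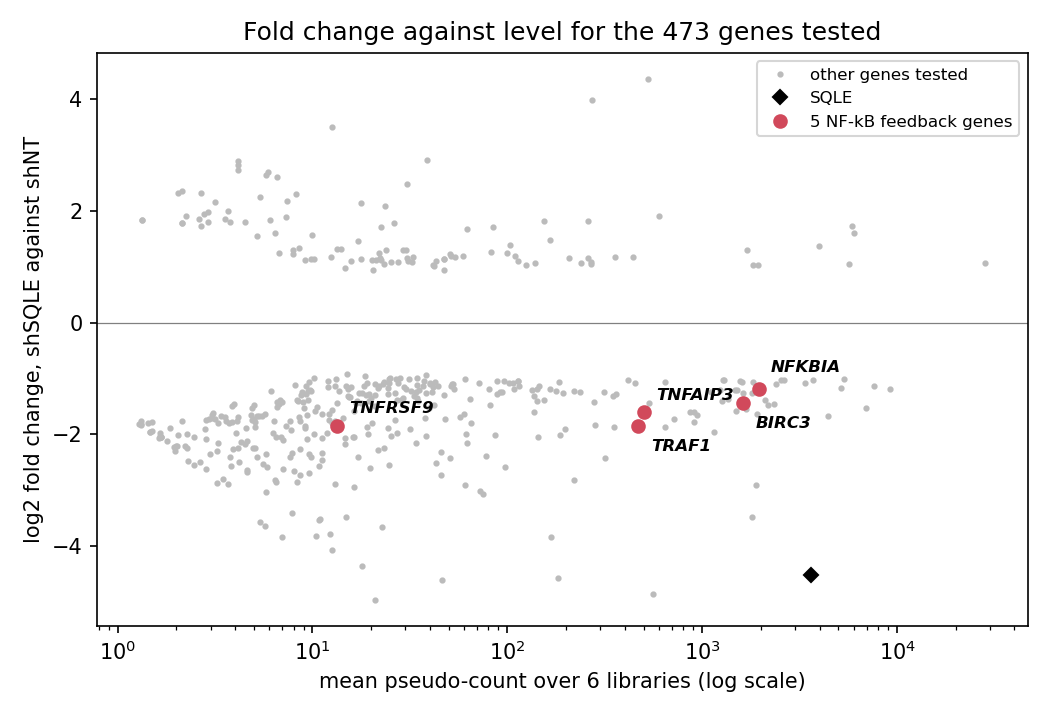
Log2 fold change of shSQLE against shNT (y axis) against the mean pseudo-count over the 6 libraries (x axis, log scale) for the 473 genes tested. NFKBIA and BIRC3 are among the well-measured genes, TNFRSF9 lies among genes with few reads, and the empty band around 0 comes from the selection of the table.

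Of the brakes, NFKBIA had the highest level of the 5 genes. Its decrease was the smallest with the pseudocount of 1 but not with 10, where that of TNFRSF9 was smaller, and its ratios to BIRC3 and TNFRSF9 overlapped between the groups. IκBα binds NF-κB and keeps it out of the nucleus, and its gene is among the first that NF-κB switches on. NFKBIA (ENSG00000100906.10, GRCh38 chromosome 14, 35401511 to 35404749, minus strand) gave 2596, 2659 and 2852 pseudo-counts in shNT replicates 1 to 3. In the shSQLE replicates the values were 1195, 1266 and 1096. The lowest shNT library was thus 2.05 times the highest shSQLE library. The mean went from 2702 ± 134 to 1186 ± 85.5 (SD, n = 3 each), which leaves 43.9%, and the log2 fold change was -1.19 (standard error, SE, 0.0793, limma, adjusted p = 2.48e-06). It rested on 8281 reads in shNT and 3567 in shSQLE, and counting error alone allows a remaining level of 42.3% to 45.8% (95% interval, exact binomial). Ordered from the smallest standard error, NFKBIA was at place 21 of the 473 genes. These values are of RNA and not of protein. From immunoblots the paper reports more IκBα protein after SQLE depletion in RKO and WiDr cells.

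TNFAIP3 encodes A20, which removes and adds ubiquitin chains on signalling proteins below TNF receptors and so ends their signal. The gene (ENSG00000118503.14) lies on chromosome 6 from 137867188 to 137883312, plus strand, and overlaps the antisense gene AL357060.1, whose reads could not be told apart if the counting ignored strand. The shNT libraries gave 719, 753 and 790 pseudo-counts, against 267, 259 and 218 in shSQLE. No shSQLE library came within 2.69-fold of the lowest shNT library. On average TNFAIP3 went from 754 ± 35.5 to 248 ± 26.6 (SD, n = 3 each), or 32.9% of the shNT level, with a log2 fold change of -1.60 (SE 0.113, limma, adjusted p = 3.45e-06). From 2308 and 748 reads, counting error alone allows 30.5% to 36.0%.

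TRAF1, the adaptor, had the largest decrease of the group beside that of TNFRSF9, from which it could not be told apart with the pseudocount of 1. TRAF proteins link the cytoplasmic tails of TNF receptors to ubiquitin ligases, and TRAF1, itself an NF-κB target, forms complexes with TRAF2 and the cIAP proteins. The gene (ENSG00000056558.10, chromosome 9, 120902393 to 120929173, minus strand) had 669.5, 785 and 760.4 pseudo-counts in shNT, against 208, 212 and 189 in shSQLE. The replicates of shSQLE lay close together, with a standard deviation of 6.02% of their mean, while counting error alone gives 7.01%. In shNT it was 8.25%, where counting error gives 3.65%. The mean of 738 ± 60.9 in shNT became 203 ± 12.2 in shSQLE (SD, n = 3 each), or 27.5%, and the log2 fold change was -1.86 (SE 0.110, limma, adjusted p = 1.49e-06). With 2256 reads in shNT and 610 in shSQLE, the counting interval of the remaining level was 25.2% to 30.3%.

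BIRC3, the survival gene, was the member whose shNT libraries differed most beyond counting error. cIAP2 attaches ubiquitin to RIPK1 and other proteins of the TNF receptor complex and so favours survival over cell death. The gene (ENSG00000023445.13, chromosome 11, 102317450 to 102339403, plus strand) reached 2781 pseudo-counts in shNT replicate 3, against 2292 and 2068 in replicates 1 and 2. The shSQLE libraries held only 841, 869 and 892. Thus the shNT values differed by up to 1.34-fold among themselves and the shSQLE values by only 1.06-fold, and the groups stayed 2.32-fold apart at their closest. The standard deviation in shNT was 15.3% of the mean, where counting error gives 2.02%, and in shSQLE it was 2.91%, where counting error gives 3.41%. The mean fell from 2380.5 ± 365 to 867 ± 25.2 (SD, n = 3 each), or 36.4% of shNT, with a log2 fold change of -1.44 (SE 0.109, limma, adjusted p = 5.35e-06). BIRC2, the neighbouring paralog, shares 0.214% of the 50-base stretches of the BIRC3 transcript.

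TNFRSF9, the receptor, is best known from activated T cells, where 4-1BB signals through TRAF1 and TRAF2. In RKO cells it was the least abundant of the 5 genes. TNFRSF9 (ENSG00000049249.8, chromosome 1, 7915894 to 7943165, minus strand) was read 19, 21 and 24 times in the shNT libraries, against 3, 10 and 4 times after depletion, which correspond to 19.0, 22.7 and 21.2 against 2.58, 9.35 and 5.11 pseudo-counts. The shNT libraries were close to each other, while shSQLE replicate 2 was 3.62 times shSQLE replicate 1. The mean went from 21.0 ± 1.82 to 5.68 ± 3.42 (SD, n = 3 each), and the log2 fold change was -1.85 (SE 0.488, limma, adjusted p = 0.00899). From 64 against 17 reads, counting error alone allows a remaining level of 14.9% to 46.9%, a range that holds the remaining levels of the other 4 genes. Its fold change depends on the pseudocount, at -2.04 with 0.1 and -1.002 with 10. A processed pseudogene, AL009183.1, overlaps the gene, and 0.895% of its 50-base stretches also occur in transcripts of other genes.

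**Figure D4:**
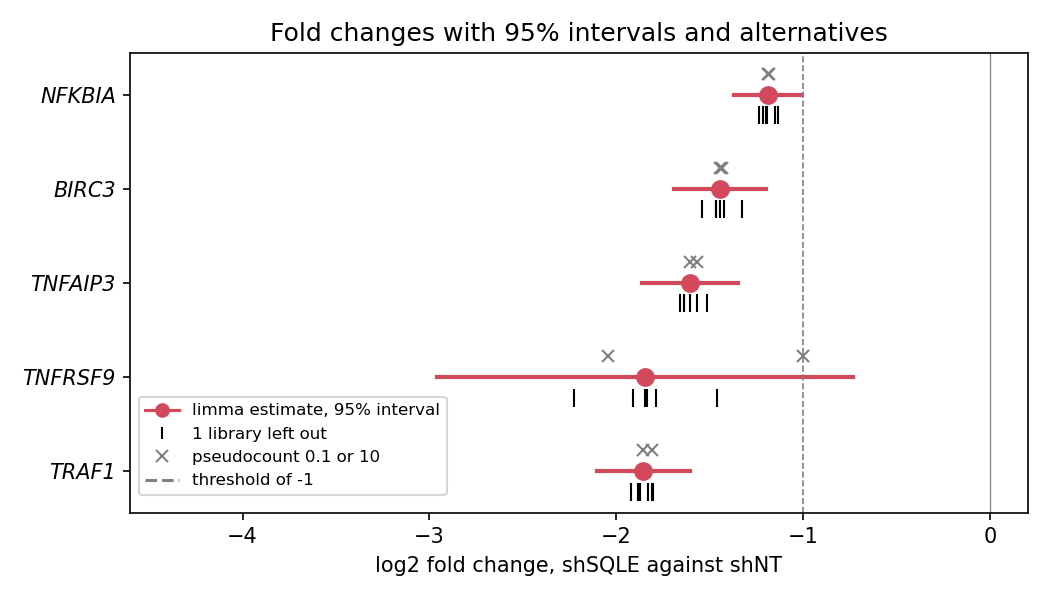
Log2 fold changes of the 5 genes with their 95% limma intervals. Black ticks give the 6 fits that each leave out 1 library, grey crosses the pseudocounts of 0.1 and 10, and the dashed line the threshold of -1. The interval of TNFRSF9 runs from -2.96 to -0.73 and spans those of the other 4 genes.

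Levels of different genes were compared per kilobase of the longest annotated transcript (GENCODE release 29). In shNT, NFKBIA stood at 1735 ± 85.8 pseudo-counts per kilobase, BIRC3 at 458 ± 70.2, TNFAIP3 at 159 ± 7.50, TRAF1 at 117 ± 9.63 and TNFRSF9 at 3.51 ± 0.305 (SD, n = 3 each). In shSQLE the order was the same, with 761 ± 54.9, 167 ± 4.85, 52.4 ± 5.63, 32.1 ± 1.93 and 0.952 ± 0.573. No neighbours in this order came within the sum of their standard deviations. With the median length of the coding transcripts of the basic set in place of the longest, a choice made after the data were seen, TRAF1 rose to 172 ± 14.2 and TNFAIP3 to 197 ± 9.30 in shNT, and the order stayed the same.

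The libraries were not ordered alike for the 5 genes. In shNT, replicate 1 was the lowest library for NFKBIA, TNFAIP3, TRAF1 and TNFRSF9, while for BIRC3 it was replicate 2. In shSQLE, replicate 3, the smallest library, was the lowest for NFKBIA, TNFAIP3 and TRAF1 and the highest for BIRC3. The part of library size in this was not tested.

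Whether the members decreased by equal amounts was examined from their ratios. Within each library the ratio of 2 members was taken, which does not depend on the size of the library, and the ratios were compared between groups for all 10 pairs. In 4 pairs the ratios of the groups did not overlap (exact two-sided permutation test, p = 0.1 each, the smallest that 3 against 3 libraries allow, and 0.25 after Benjamini-Hochberg adjustment over the 10 pairs), so no pair could pass a threshold of 0.05. NFKBIA stood at 3.88, 3.39 and 3.75 times TRAF1 in shNT and at 5.74, 5.98 and 5.79 times in shSQLE. This was the widest separation, with a difference in log2 fold change of 0.67. NFKBIA also went from 3.61, 3.53 and 3.61 times TNFAIP3 to 4.47, 4.89 and 5.04 times, a difference of 0.42. NFKBIA thus stood higher relative to TNFAIP3 and TRAF1 in each shSQLE library than in any shNT library. TNFAIP3 against TRAF1, 1.07, 0.959 and 1.04 in shNT, was 1.28, 1.22 and 1.15 in shSQLE, a difference of 0.25. TRAF1 against BIRC3 went from 0.292, 0.380 and 0.273 to 0.248, 0.244 and 0.212, a difference of -0.41. The other 6 pairs overlapped between the groups. How often the ratios of any 2 genes of the table separate was not computed, so the count of 4 pairs is a description only. For NFKBIA against BIRC3 the ratio was 1.13, 1.29 and 1.03 in shNT and 1.42, 1.46 and 1.23 in shSQLE (difference 0.26, exact permutation p = 0.2). The difference of TNFAIP3 and BIRC3, -0.16, was smaller than the spread of their ratio between libraries of a group (SD 0.181 and 0.198 on the log2 scale). With the pseudocount of 1 all 4 pairs with TNFRSF9 overlapped, and their shSQLE ratios had an SD of 0.731 to 0.805 on the log2 scale, so a difference from TNFRSF9 was not detectable within this spread. With a pseudocount of 10 the groups did not overlap for TRAF1 and for TNFAIP3 against TNFRSF9, but a constant of 10 exceeds every shSQLE value of TNFRSF9 and by construction narrows both its fold change and its spread, so this is not read as a difference between the members.

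**Figure D5:**
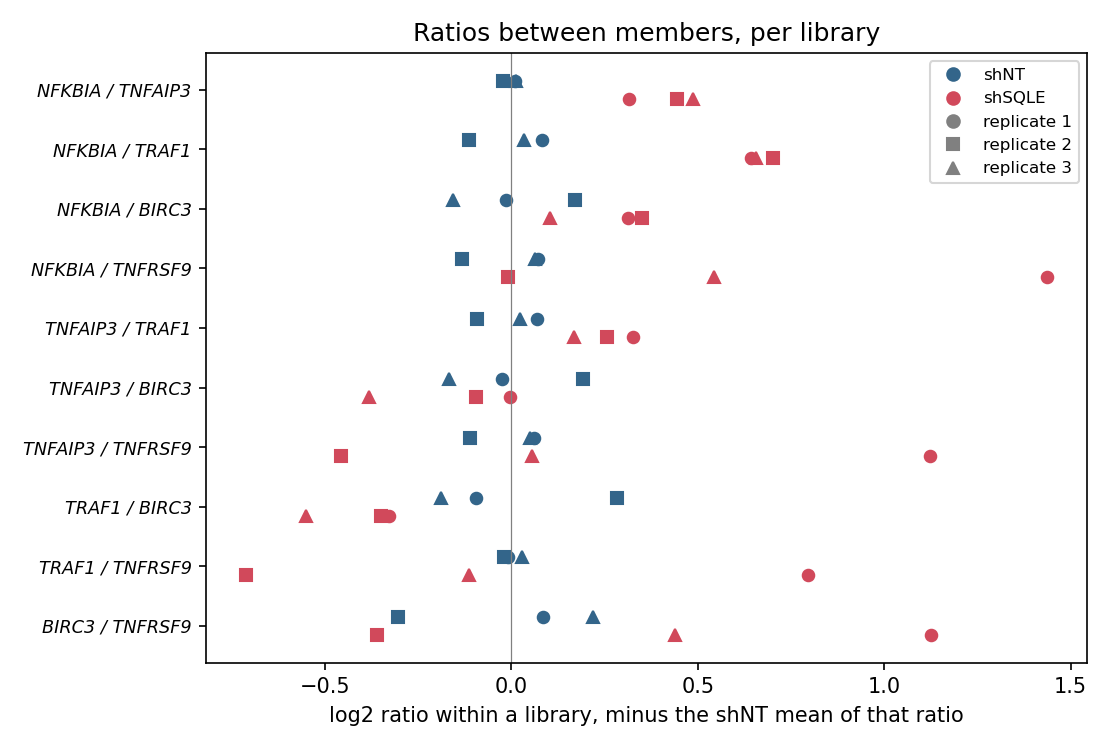
Log2 ratio of 2 members within each library, shown minus the shNT mean of that ratio, for the 10 pairs. Blue points are shNT and red points shSQLE libraries, and the shape gives the replicate number. The red and blue points do not overlap for NFKBIA against TNFAIP3, NFKBIA against TRAF1, TNFAIP3 against TRAF1 and TRAF1 against BIRC3.

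Outside the 5 genes, few members of the pathway were in the table. Of 101 other genes of 8 lists, which cover the NF-κB subunits, the IκB family, the IKK complex, ubiquitin editors, adaptors, survival genes, TNF receptors and TNF ligands, 2 were present and 99 were not analysed here. None of the 5 NF-κB subunit genes and none of the 12 genes of the IKK complex and of IκB degradation was among the 500. The present genes were FAS, the death receptor, and TNFSF15, which encodes the ligand TL1A. Both were called lower, as were 71.9% of all genes tested, so that this count says nothing particular of the pathway. FAS, which p53 also induces, had 1829, 1505 and 1841 pseudo-counts in shNT and 728, 682 and 822 in shSQLE. Its groups were separate, and the log2 fold change was -1.21 (SE 0.109, limma, adjusted p = 1.69e-05). TNFSF15 had 140.3, 171 and 147 against 74.2, 72.7 and 71.7, with a log2 fold change of -1.05 (SE 0.157, limma, adjusted p = 0.000461). Both decreases were closer to that of NFKBIA than to that of TRAF1.

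Of 18 cytokine, adhesion and protease genes that NF-κB induces, 8 were in the table and all 8 were called lower, where 71.9% of all genes tested were, with a median log2 fold change of -2.20. That median lies between CXCL1 and CSF2, genes of few reads. In shSQLE, CXCL1 had 9, 6 and 6 reads, CSF2 4, 1 and 0, CXCL2 20, 6 and 1, and IL1A 7, 4 and 3. For 7 of the 8 the groups did not overlap, the exception being CSF2, while 69.6% of all genes tested had every shSQLE value under the shNT values. In a table of selected genes these counts are a description. Leaving CCL20 aside, their range was wider than that of the feedback genes, from CXCL8, the neutrophil chemokine, at -4.85 (SE 0.237) to PLAU, which encodes urokinase, at -1.09 (SE 0.0784). CCL20 had at most 1 read in any shSQLE library and was at least 13.4-fold lower when set against 3 reads per library.

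The genes whose profile over the 6 libraries came closest to each member were found among genes with a mean of at least 50 pseudo-counts, by the root mean square difference of log2(pseudo-count + 1), each gene taken relative to its own shNT mean. Closest to TNFAIP3 was MGLL, which encodes monoglyceride lipase, at 0.0295, and closest to BIRC3 was ANXA1, which encodes annexin A1, at 0.0597. MGLL went from 1302 ± 78.0 to 431 ± 41.7 and ANXA1 from 779.7 ± 83.8 to 288 ± 10.3 pseudo-counts (SD, n = 3 each). NFKBIA was followed by GJC1, RFK and CARNMT1 at 0.0794 to 0.0841. TNFAIP3 was further followed by TMSB4X and TAF13, and BIRC3 by MYL5 and SPRY2. TRAF1 was followed by NCEH1, OSGIN1 and MSN at 0.0930 to 0.117. For TNFRSF9, whose own level is below 50, the search left out every gene of its level, and the 3 that came closest, LURAP1L, NCEH1 and a gene whose name the file gives as the date 4-Mar, differed from it by 0.246 to 0.415. Of the 4 members that could be found by this search, none was among the 3 closest profiles of another member. These distances cover 140 or 141 genes that had all been selected as changed, and they are a description.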

How the data were processed

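RNA from RKO cells was sequenced in 6 libraries, 3 shNT and 3 shSQLE, grouped by their labels. The authors deposited 1 table with a signal per gene and library, which holds pseudo-counts, together with the log2 fold change, p-value and adjusted p-value of their comparison, which were read only to see how the 500 genes had been selected. The submitters' processing notes name Bowtie 0.12.2 and the mouse build mm8, although the table lists human genes. The counting, the annotation and the test are not given in the sources used here. Unchanged genes were not analysed here, so no other scaling could be tried.

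Whole reads were recovered by fitting library sizes and a dispersion per group to a negative binomial quantile adjustment (tolerance 0.01). On simulated data for 500 genes, 100% of the reads of either group were recovered. Intervals from these reads cover counting error only.

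limma 3.58.1 in R 4.3.3 was run with a mean-variance trend on log2(value + 1), for the 473 genes that reached a value of 1 in 3 or more libraries, and p-values were adjusted by Benjamini-Hochberg over these genes. Calls needed an adjusted p-value under 0.05 together with a 2-fold change on this scale. The fold changes understate those of genes with few reads. The 5 members, the pathway lists and the rules were chosen with earlier results of these data known. Named genes are SQLE, the members, list genes in the table and the 3 closest profiles of each member. Positions and transcripts come from GENCODE release 29 (GRCh38) and promoters from RefSeq (GRCh38.p14). Alternatives changed the filter, the pseudocount, the trend, the thresholds and the set of libraries, and added a replicate block. Other steps used Python 3.11.15, SciPy 1.17.1, pandas 2.3.3, NumPy 2.4.6 and Matplotlib 3.10.9.

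The deviations of same-numbered libraries from their group means correlated at 0.0806, 0.0416 and 0.0919 over genes, and the numbers were not taken to pair them.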

Additional observations from a re-analysis of the deposited data

How the results depend on the processing

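Each of NFKBIA, TNFAIP3, TRAF1 and BIRC3 kept its direction and its call under the 13 alternatives run, and TNFRSF9 under 12, since it was not tested when 10 or more was required in all 6 libraries, which left 4 of 5 members called. Without 1 library the log2 fold changes ranged from -1.24 to -1.13 for NFKBIA, from -1.66 to -1.51 for TNFAIP3, from -1.92 to -1.81 for TRAF1, from -1.54 to -1.33 for BIRC3, and from -2.23 without shSQLE replicate 2 to -1.46 without shSQLE replicate 1 for TNFRSF9. The adjusted p-value of TNFRSF9 by limma ranged from 0.00392 to 0.0231. Those of the other 4 members reached at most 0.00207, and for each of them the highest came from the limma fit without the mean-variance trend. SQLE stayed between -4.53 and -4.48. With the replicate block, 333 genes were called lower and 97 higher, the 5 members stayed called, and the log2 fold change of BIRC3 was -1.44. limma-voom on the recovered reads, chosen after the data were seen, gave 338 and 96, with TNFRSF9 at -1.95.

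Over all genes, 340 were called lower and 98 higher. Requiring 10 or more in all 6 libraries, which leaves fewer genes tested, gave 137 and 47, a pseudocount of 10 gave 151 and 37, and an adjusted p-value under 0.01 gave 203 and 52. Leaving out 1 library gave 232 to 295 lower and 71 to 80 higher. By construction a pseudocount of 10 narrows the fold changes of genes with few reads. How much of the lower counts this makes up was not tested.

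The differences between members that changed sign all involve TNFRSF9. With a pseudocount of 10 the difference in log2 fold change was -0.18 for NFKBIA minus TNFRSF9, -0.57 for TNFAIP3 minus TNFRSF9 and -0.43 for BIRC3 minus TNFRSF9, in place of 0.66, 0.24 and 0.40, and TRAF1 minus TNFRSF9, which kept its sign, was -0.81 in place of -0.01. By construction this constant narrows the fold change of TNFRSF9 and hardly moves those of the other 4. TRAF1 minus TNFRSF9 was 0.18 with a pseudocount of 0.1 and ranged from -0.41 to 0.34 without 1 library. TNFAIP3 minus TNFRSF9 ranged from -0.20 without shSQLE replicate 1 to 0.59. NFKBIA minus TNFRSF9 ran from 0.27 to 0.99 and BIRC3 minus TNFRSF9 from 0.039 to 0.78, both lowest without shSQLE replicate 1. The 6 differences among the other 4 members kept their sign throughout, but those with BIRC3 moved in size. Without 1 library, TRAF1 minus BIRC3 ranged from -0.51 to -0.27. TNFAIP3 minus BIRC3 ranged from -0.24 to -0.049 and NFKBIA minus BIRC3 from 0.18 to 0.34. TNFRSF9 rests on 3 to 10 reads per shSQLE library, and its SD there was 60.3% of the mean, where counting error alone gives 42.0%.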
